A study of Mus musculus with 8 samples.

Results

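The cholesterol synthesis genes described here are 8 enzymes of the pathway, Hmgcs1, Idi1, Fdft1, Sqle, Lss, Cyp51, Msmo1 and Dhcr7. All probe sets that the array annotation assigns to these symbols alone were taken, which gave 21 of the 45101 probe sets of the array and 8 of its 18193 named genes. The study compared RNA carried by exosomes, small vesicles released by cells, with RNA of the cells that released them. There were 4 exosome arrays and 4 cell arrays, all Affymetrix mouse arrays hybridised with biotin-labelled cRNA made from total RNA. The exosomes were pelleted from the supernatant of MC/9, a mouse mast cell line, after spins at lower speed and filtration had removed cells and debris. The cells were MC/9 cells grown without any other treatment in medium with serum and a T cell culture supplement of rat origin. Both groups therefore came from 1 cell line under the same culture conditions, with no genotype or drug contrast. The labels number 4 biological replicates in each group but do not say which came from separate cultures, so p-values measure the spread between these arrays, which may be partly technical. In such bulk RNA, fewer vesicles carrying a transcript and fewer copies per vesicle cannot be told apart.

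Cholesterol is built from acetyl units through mevalonate, which is turned into activated isoprene units, joined to squalene, closed into the ring of lanosterol and trimmed to cholesterol. Hmgcs1 makes HMG-CoA, the substrate of the mevalonate-forming step, and Idi1 interconverts the isoprene units. Fdft1 makes squalene, Sqle oxidises it, Lss closes the rings, and Cyp51, Msmo1 and Dhcr7 act in the steps after lanosterol. The genes are classical targets of the SREBP transcription factors, which are released from the endoplasmic reticulum when its membranes are low in sterol. Mast cells are granule-bearing immune cells of the allergic response, and exosome membranes are known to contain cholesterol.

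On each array a floor was set at the 95th percentile of 150 probe sets for beta-defensins, keratin-associated proteins and taste, vomeronasal and olfactory receptors, genes for which mast cells are not a known source. This floor averaged a signal of 282 ± 38.8 on exosome arrays, against 13.2 ± 2.54 on those of cells (SD, n = 4 each), and 6.1% and 47.5% of probe sets lay above it. The deposited signals had been scaled to a trimmed mean of 100.0 on every array. The hybridisation controls, which are added in fixed amount, averaged 14.3 ± 0.531 for exosomes and 9.81 ± 0.419 for cells on the log2 scale. The lowest correlation between log2 signals of 2 arrays was 0.4 among exosome arrays and 0.94 among cell arrays. Of 9 mast cell markers, 0 passed the floor on all exosome arrays and 9 did so on all cell arrays, with summed signals of 1268 to 1886 on exosome arrays and 38910 to 40972 on cell arrays. Summed signals of the T cell, B cell and fibroblast markers were 163 to 427, 308 to 685 and 450 to 973 on exosome arrays, against 17 to 35, 11 to 20 and 15 to 26 on cell arrays, and 0 of these 14 markers lay above the floor on all arrays of either group. Macrophage markers summed to 395 to 734 on exosome arrays and 84 to 104 on cell arrays, with Csf1r and Cd14 among 5 above the floor on all cell arrays. Erythroid markers summed to 308 to 581 on exosome arrays and 206 to 299 on cell arrays, with Epor and Klf1 among 4 above it on all cell arrays. The part of these differences between arrays in the results was not tested.

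RefSeq promoters were available for 6 of the 8 genes, and the 5 with a CCAAT box are shown. The promoter of Dhcr7 had no CCAAT box and is not shown. All 8 genes had a probe set that fell in exosomes, and a link between the motifs and the falls was not tested. Each sequence is the 250 bases before a transcription start of RefSeq in GRCm38.p6, written 5′ to 3′ along the gene's own strand. Capitals mark matches, on either strand, to TCACNCCAC, a sterol regulatory element that SREBP binds, to CCAAT, the box bound by NF-Y, and to GGGCGG, a GC box.
Hmgcs1, chr13:119690101-119690350, plus strand: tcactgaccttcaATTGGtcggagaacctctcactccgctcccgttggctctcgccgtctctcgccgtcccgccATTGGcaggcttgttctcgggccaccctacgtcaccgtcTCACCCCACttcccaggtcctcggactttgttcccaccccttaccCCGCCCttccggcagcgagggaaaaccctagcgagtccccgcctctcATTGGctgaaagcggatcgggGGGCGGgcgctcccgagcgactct
Idi1, chr13:8885356-8885605, plus strand: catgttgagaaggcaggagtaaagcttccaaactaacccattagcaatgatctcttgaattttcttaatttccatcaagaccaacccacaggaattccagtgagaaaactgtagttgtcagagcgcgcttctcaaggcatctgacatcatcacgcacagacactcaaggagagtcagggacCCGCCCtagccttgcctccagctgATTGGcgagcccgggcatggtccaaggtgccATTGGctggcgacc
Lss, chr10:76531355-76531604, plus strand: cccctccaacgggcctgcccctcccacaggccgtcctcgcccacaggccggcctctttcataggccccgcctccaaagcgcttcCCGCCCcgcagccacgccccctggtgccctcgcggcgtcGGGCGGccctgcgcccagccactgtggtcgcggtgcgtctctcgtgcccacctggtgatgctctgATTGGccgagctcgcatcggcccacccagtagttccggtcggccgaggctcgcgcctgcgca
Cyp51, chr5:4104698-4104947, minus strand: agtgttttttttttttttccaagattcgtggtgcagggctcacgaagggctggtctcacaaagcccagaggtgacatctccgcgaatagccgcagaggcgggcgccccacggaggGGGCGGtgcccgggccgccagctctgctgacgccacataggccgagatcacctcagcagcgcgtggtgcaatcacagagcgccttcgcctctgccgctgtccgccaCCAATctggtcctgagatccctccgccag
Msmo1, chr8:64733579-64733828, minus strand: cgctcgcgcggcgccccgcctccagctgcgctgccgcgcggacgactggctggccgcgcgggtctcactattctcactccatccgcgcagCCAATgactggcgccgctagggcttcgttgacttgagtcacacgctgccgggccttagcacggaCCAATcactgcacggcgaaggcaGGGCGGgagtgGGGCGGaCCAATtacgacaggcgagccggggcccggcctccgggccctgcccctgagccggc

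Of these 3 motifs, only Hmgcs1 among the 6 promoters held the sterol element, 137 bases before its start, as did 1.03% of 27024 promoters of the same length. The CCAAT box was found in 5 of the 6 and in 34.5% of all promoters. GC boxes were found in 6 of 6, against 33% of all promoters, and the motifs did not overlap one another in the 5 sequences shown. A match is a description of the letters in this window and not proof of a site.

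Few member signals stood above the exosome background, as for most of the array. Of the 21 probe sets, 0 exceeded the floor on all exosome arrays and 17 did so on all cell arrays. Taken array by array, 5 of 84 exosome measurements lay above the floor, 3 of them on exosome array 1, 0 on array 2 and 1 each on arrays 3 and 4. These came from 4 probe sets, 1 each for Hmgcs1, Fdft1 and Lss and 1 for Idi1. Over the whole array, 18.4% of the probe sets that exceeded the floor on every cell array did so on at least 1 exosome array and 2.39% on all of them, so the members' counts of 4 and 0 were near the shares of the array.

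A probe set was tested if it lay above the floor on at least 3 of 4 arrays of a group. This filter passed 18 of the 21 probe sets and left out 2 of Fdft1 and 1 of Msmo1. No member lay above the floor on 3 exosome arrays, so all 18 passed through the cell arrays alone, a route that favours falls. By limma on log2(signal + 4), with adjusted p under 0.05 over all 20219 tested probe sets, 15 fell in exosomes, 1 rose and 2 did not pass. Over all tested probe sets, 37.5% fell and 17.9% rose. With no filter, 15 of the 21 fell and 4 rose, against 18% and 59% of all probe sets. The median difference, exosome minus cell, was -2.94 for the 18 and -0.69 for all tested probe sets. By signal, exosome arrays lay wholly below cell arrays for 15 of the 21 and wholly above for 4, against 16.7% and 50.2% of 45037 probe sets. Every one of the 8 genes had at least 1 probe set that fell. Because most exosome signals lay under the floor, a fold is given below as a bound where a probe set was under the floor on every exosome array. The bound sets the cell signals against the higher of floor and signal on each exosome array, as geometric means, and holds for the deposited scaling.

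**Figure D1:**
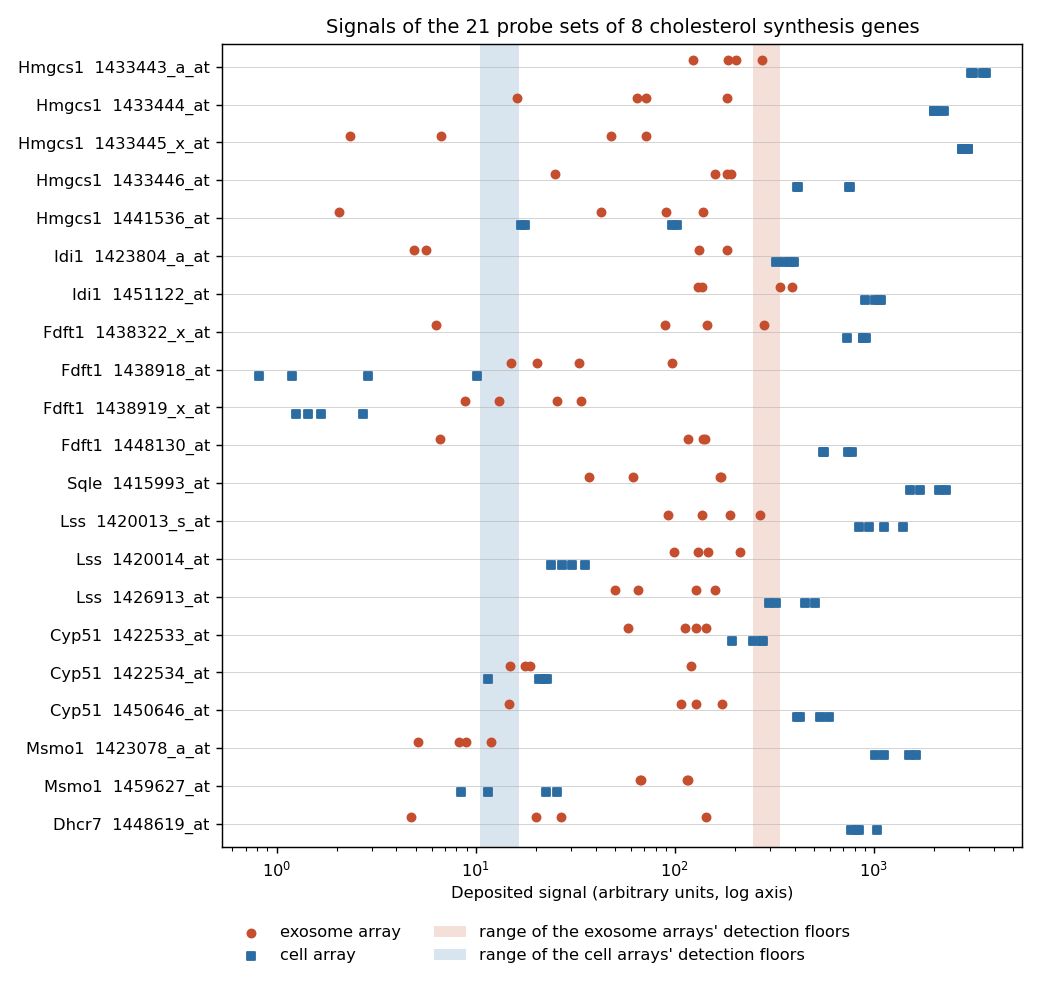
Signal of each of the 21 probe sets on every array, on a log axis, with exosome arrays above cell arrays and the floor of each group marked. Exosome points lie under the exosome floor for all but 5 of 84 measurements, while 17 probe sets lie above the cell floor on all 4 cell arrays.

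Hmgcs1 has 5 probe sets, of which 4 fell. Its probe set 1433443_a_at, whose suffix means that it matches several transcripts of the gene, had signals of 273, 203, 185 and 124 in exosomes, against 3657, 3536, 3055 and 3127 in cells. The groups did not overlap, and exosome array 1 alone was above the floor. The mean was 196 ± 61.5 in exosomes and 3344 ± 297 in cells (SD, n = 4 each), a log2 difference of -4.11 (SE 0.29, limma adjusted p = 2.78e-06). Raising sub-floor signals to the floor gave -3.52.

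Probe set 1433444_at of Hmgcs1 gave 16.1, 64.5, 71.5 and 183 in exosomes, against 2100, 2009, 2008 and 2247 in cells. The cell arrays were tight and the exosome arrays spread widely, all under the floor, and the gene was at least 7.45-fold lower in exosomes (log2 difference -4.98, SE 0.56, limma adjusted p = 3.79e-05). Probe set 1433445_x_at, whose suffix warns that some probes may bind other transcripts, had signals of 6.73, 47.6, 71.6 and 2.34 in exosomes, against 2754, 2974, 2758 and 2966 in cells. This was the largest fitted difference of the 18 under the deposited scaling, -6.98 (SE 0.70, limma adjusted p = 1.91e-05), and a bound of at least 10.2-fold. Probe set 1433446_at was dimmer, at 159, 191, 183 and 24.9 in exosomes, against 762, 748, 415 and 409 in cells. It was at least 1.99-fold lower in exosomes (log2 difference -2.29, SE 0.60, limma adjusted p = 0.00745), and within the second hybridisation batch its difference of -2.50 did not pass (limma adjusted p = 0.0927). The last Hmgcs1 probe set, 1441536_at, did not separate the groups. It gave 42.5, 90.2, 139 and 2.05 in exosomes and 102, 97.1, 16.8 and 17.7 in cells, with a log2 difference of -0.09 (SE 0.98, limma adjusted p = 0.946). Of the 5 probe sets of this gene, 4 thus fell and 1 did not pass. The cell signals of 1441536_at were all under the exosome floors, so any fall would lie within the exosome background.

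Idi1, the isomerase of the isoprene units, was the only member with a probe set whose difference changed between hybridisation batches by the test of that change. Replicates 1 and 2 of both groups were hybridised in one batch and replicates 3 and 4 in another, by the array headers. Probe set 1423804_a_at had signals of 4.9, 5.62, 183 and 132 in exosomes, against 354, 397, 322 and 379 in cells. Exosome arrays 3 and 4 were far above arrays 1 and 2, though all were under the floor, and the cell arrays were even. The log2 difference was -3.25 (SE 0.95, limma adjusted p = 0.0134), with a bound of at least 1.29-fold. Within the batches it was -1.15 in batch 2 and -5.36 in batch 1 (limma adjusted p = 0.0356 and 0.00319). The change of the difference, batch 2 minus batch 1, was 4.2 on the log2 scale (limma adjusted p = 0.0167), a term that passed for 3.69% of all tested probe sets.

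The second Idi1 probe set, 1451122_at, had signals of 137, 131, 337 and 387 in exosomes, against 903, 1011, 1088 and 1055 in cells. Exosome arrays 3 and 4 were above the floor, so this was the only one of the 21 probe sets above it on both arrays of a batch. Signals averaged 248 ± 133 in exosomes and 1015 ± 80.5 in cells (SD, n = 4 each), and the log2 difference was -2.18 (SE 0.39, limma adjusted p = 0.000834). It was -1.70 when sub-floor signals were raised to it. Within batches it was -1.56 in batch 2 and -2.80 in batch 1, and the change between batches of 1.24 did not pass (limma adjusted p = 0.0832).

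Fdft1, squalene synthase, has 4 probe sets, of which 2 fell. Probe set 1438322_x_at gave 280, 6.33, 89.5 and 145 in exosomes, against 881, 732, 910 and 886 in cells. Exosome array 1 was above the floor and array 2 was close to 0, yet no exosome array reached the lowest cell array. The log2 difference was -3.42 (SE 0.82, limma adjusted p = 0.0049), and -1.54 when sub-floor signals were raised to it. Within batch 2 it was -2.93, and within batch 1 the value of -3.90 did not pass (limma adjusted p = 0.134). Probe set 1448130_at had signals of 116, 6.58, 139 and 142 in exosomes and 774, 739, 555 and 561 in cells. Array 2 was again the low exosome array, and the signal was at least 2.32-fold lower in exosomes (log2 difference -3.19, SE 0.75, limma adjusted p = 0.00428). Within batch 1 its difference of -4.42 did not pass (limma adjusted p = 0.0523). The remaining probe sets, 1438918_at and 1438919_x_at, were under the floor on all 8 arrays and were not tested. Their signals ran over 15.1 to 96.4 and 8.81 to 33.8 in exosomes, against 0.814 to 10.2 and 1.25 to 2.73 in cells.

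Sqle, squalene epoxidase, catalyses an oxygen-dependent step that limits the flux through the pathway. Its probe set 1415993_at had signals of 170, 169, 61.3 and 37.0 in exosomes, against 2312, 2117, 1525 and 1710 in cells. Both groups were lower in replicates 3 and 4, and they did not overlap. Signals averaged 109 ± 70.2 in exosomes and 1916 ± 362 in cells (SD, n = 4 each), at least 6.74-fold lower in exosomes (log2 difference -4.32, SE 0.47, limma adjusted p = 3.34e-05).

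Lss, lanosterol synthase, had probe sets that went opposite ways. Probe set 1420013_s_at, whose suffix means that its probes can match transcripts of related genes, gave 268, 137, 189 and 92.4 in exosomes, against 1403, 1124, 949 and 839 in cells. It fell by 2.70 on the log2 scale (SE 0.36, limma adjusted p = 0.00013) and had exosome array 1 above the floor. Raising sub-floor signals to the floor gave -1.87. Probe set 1426913_at had signals of 50.0, 127, 65.5 and 160 in exosomes and 503, 453, 298 and 323 in cells. All its exosome arrays were under the floor and below every cell array, with a bound of at least 1.37-fold (log2 difference -2.04, SE 0.42, limma adjusted p = 0.00206). Within batch 2 its difference of -1.56 did not pass (limma adjusted p = 0.0607).

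Probe set 1420014_at of Lss was the only one of the 18 that rose. It had signals of 212, 147, 130 and 98.9 in exosomes, against 27.1, 30.6, 23.9 and 35.3 in cells. Every exosome array was under its own floor and every cell array above its own, so the rise under the deposited scaling (2.15, SE 0.41, limma adjusted p = 0.00113) lay within the exosome background. The difference was 0.57 after quantile normalization, -1.25 scaled to poly-A controls and -2.05 scaled to hybridisation controls. It was larger, at 3.1, with the scaling to commonly measured probe sets described below. Raising sub-floor signals to the floor gave 3.11, but every exosome value was then the floor itself.

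Cyp51, the sterol demethylase that acts on lanosterol, has 3 probe sets, of which 2 fell. Probe set 1422533_at gave 58.0, 127, 112 and 143 in exosomes, against 275, 276, 193 and 247 in cells. The groups did not overlap, but the geometric mean of the cell signals was under that of the exosome floors, so no bound can be given. The log2 difference was -1.20 (SE 0.37, limma adjusted p = 0.0181). It did not pass within either batch, at -0.77 in batch 2 and -1.63 in batch 1 (limma adjusted p = 0.113 and 0.0531), nor without cell replicate 1 or 2, at -1.14 each (limma adjusted p = 0.0523 and 0.0513). Probe set 1450646_at was brighter, at 108, 172, 128 and 14.7 in exosomes and 534, 596, 412 and 427 in cells. It was at least 1.74-fold lower in exosomes (log2 difference -2.55, SE 0.62, limma adjusted p = 0.00523), with -3.09 in batch 2, which did not pass, and -2.02 in batch 1 (limma adjusted p = 0.0617 in batch 2). Probe set 1422534_at was near the floor in cells and overlapped between groups, at 18.7, 14.9, 17.6 and 121 in exosomes and 22.7, 11.5, 20.8 and 22.0 in cells (log2 difference 0.53, SE 0.63, limma adjusted p = 0.501).

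Msmo1, the methylsterol monooxygenase that removes methyl groups after Cyp51, had the smallest adjusted p of the 18 tested probe sets under the deposited scaling. Probe set 1423078_a_at had signals of 12.0, 8.27, 8.94 and 5.13 in exosomes, against 1496, 1620, 1017 and 1121 in cells. All 4 exosome arrays were in the low part of the array, unlike most other members, which scattered. Signals averaged 8.59 ± 2.82 in exosomes and 1314 ± 290 in cells (SD, n = 4 each), with a log2 difference of -6.71 (SE 0.36, limma adjusted p = 8.39e-07). It was nearly the same in both batches, -6.62 in batch 2 and -6.80 in batch 1. Since the exosome floor is high, the bound was at least 4.6-fold. The other Msmo1 probe set, 1459627_at, was above the floor on 0 exosome arrays and 2 cell arrays and was not tested, with 67.7, 67.1, 117 and 115 in exosomes and 25.6, 22.6, 8.48 and 11.5 in cells.

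Dhcr7, the reductase that converts 7-dehydrocholesterol to cholesterol, had 1 probe set, 1448619_at. Its signals were 143, 26.7, 20.0 and 4.73 in exosomes, against 769, 1031, 842 and 810 in cells. Exosome array 1 was the highest of the 4 and still under the floor, and the cell arrays were even. The signal was at least 3.06-fold lower in exosomes (log2 difference -4.79, SE 0.70, limma adjusted p = 0.000219). The difference was -5.84 in batch 2 and -3.73 in batch 1.

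A rank within each array does not depend on how the array was scaled. Sqle stood at the percentiles 79.9, 79.9, 40.3 and 30.7 of all probe sets on exosome arrays, against 98.9, 98.8, 97.6 and 97.8 on cell arrays. Msmo1 probe set 1423078_a_at stood at 11.7, 7.1, 7.7 and 2.9 on exosome arrays and at 98.0, 98.2, 96.2 and 96.6 on cell arrays. Dhcr7 stood at 73.1, 26.6, 20.7 and 2.4 on exosome arrays and at 95.5, 96.9, 95.5 and 95.3 on cell arrays. Probe sets near the top of the cell arrays were thus spread from the bottom to the upper part of the exosome arrays. All exosome signals of these probe sets were under the floor, which 3.39% to 8.56% of probe sets exceeded on an exosome array. Their exosome ranks therefore order signals not told apart from background, and the spread does not measure transcript amounts. Of the 21 probe sets, 14 had every exosome percentile below every cell percentile and 0 had every one above, against 22.0% and 15.2% of 45037 probe sets. For each of the 14, the two-sided exact permutation p over 70 assignments was 0.029, the smallest that 4 against 4 arrays allow (0.0429 after Benjamini-Hochberg adjustment over the 21). Groups that do not overlap always give this value, so it adds nothing to the count of 14. Idi1 probe set 1451122_at, which fell by signal, stood at 71.1, 68.9, 96.7 and 97.6 on exosome arrays and at 96.3, 96.8, 96.5 and 96.4 on cell arrays (exact permutation p = 0.4). On exosome arrays 3 and 4 it thus ranked as high as in cells. The risen Lss probe set 1420014_at ranked over 56.6 to 87.6 on exosome arrays and 59.7 to 67.4 on cell arrays, which overlap (exact permutation p = 0.257).

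**Figure D2:**
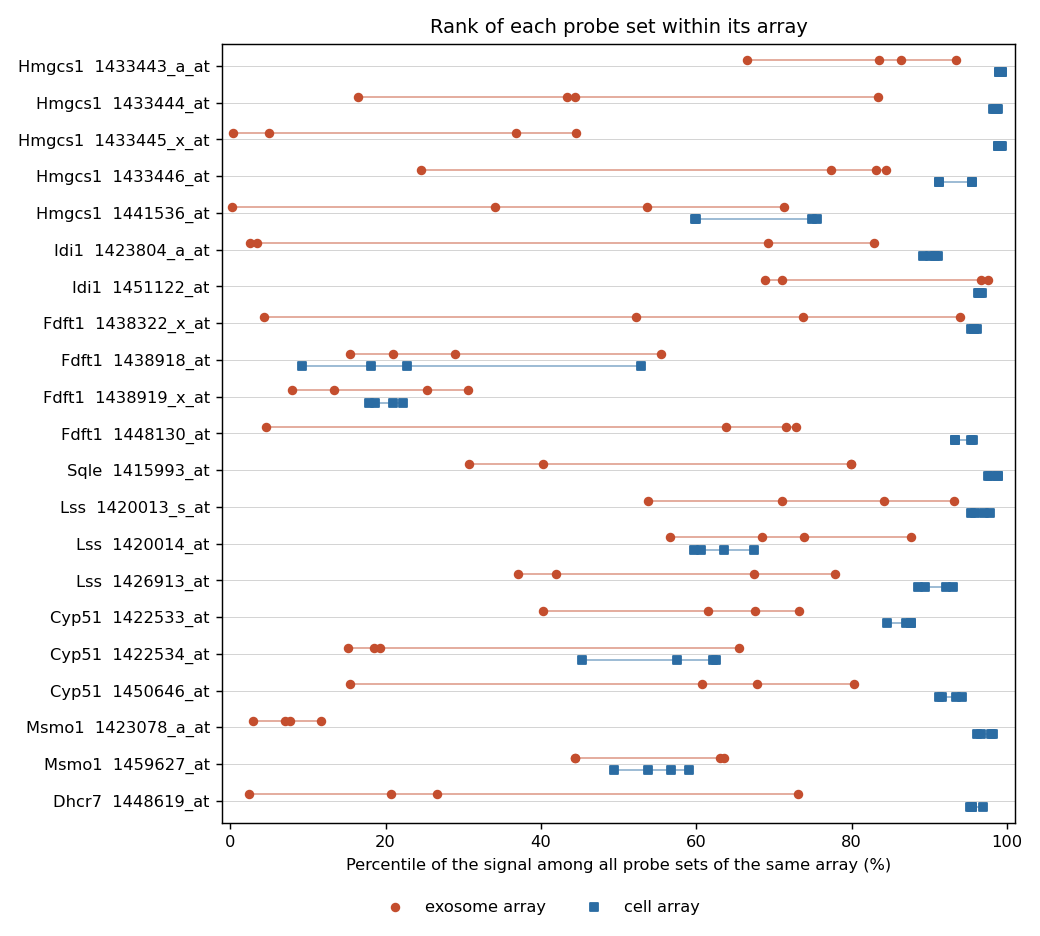
Percentile of each member probe set among all probe sets of its array, with exosome arrays above cell arrays and 1 point an array. Msmo1 1423078_a_at lies at 2.9 to 11.7 on exosome arrays and at 96.2 to 98.2 on cell arrays, while Idi1 1451122_at reaches 97.6 on exosome array 4.

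The scaling moved the whole table as well as the members. The median of all tested probe sets was -0.69 under the deposited scaling, -1.51 after quantile normalization and 0.29 when arrays were scaled to the probe sets measured above the floor on each of the 8. It was -4.72 scaled to hybridisation controls and -3.93 scaled to poly-A controls. The members' medians were -2.94, -2.91, -1.92, -7.08 and -6.08 in the same order, each lower than that of the table. With the scaling to commonly measured probe sets 8 fell, all among the 15, and 1 rose, while 21.7% of all tested probe sets fell and 28.7% rose. The 8 were 3 of Hmgcs1 and 1 each of Fdft1, Sqle, Lss, Msmo1 and Dhcr7. After quantile normalization 15 fell, against 47.7% of all, and 14 of them were among the 15, with Idi1 1451122_at lost and Cyp51 1422534_at gained. With hybridisation controls 18 fell, against 94.3% of all, and with poly-A controls 17, against 81.7%. Of the 18 tested probe sets, 16 lay below the median of all after quantile normalization and 15 under each of the other scalings.

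**Figure D3:**
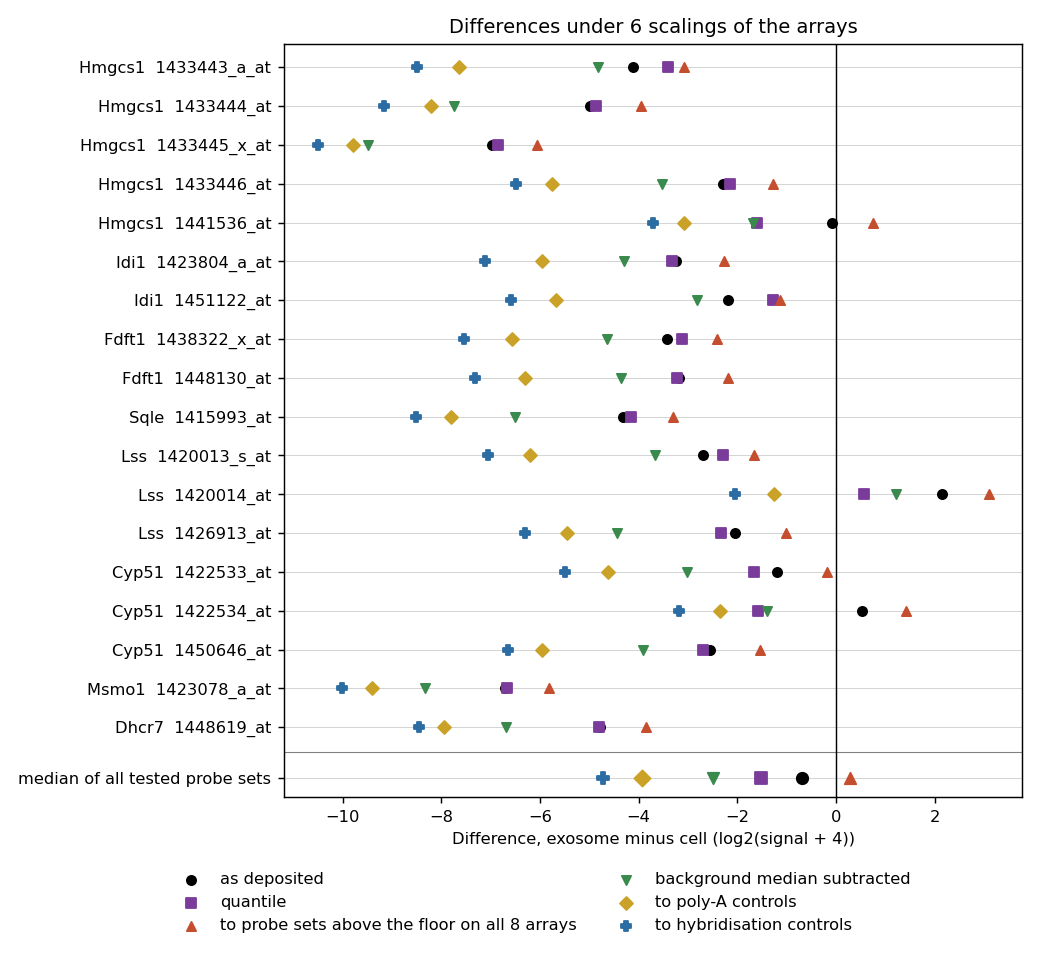
Log2 difference, exosome minus cell, of each tested member probe set under the deposited and alternative scalings, with the median of all tested probe sets under each scaling in the bottom row. The Msmo1, Sqle, Dhcr7 and most Hmgcs1 points stay below that median throughout, while Lss 1420014_at changes sign.

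Within the cells, members of the pathway also differed between the hybridisation batches, a comparison chosen after the values had been seen. By limma on 2 against 2 cell arrays under the deposited scaling, 9 of the 18 were lower in batch 2, 0 were higher and 9 did not pass, against 23.8% lower and 15.4% higher of 19843 probe sets. Scaled to poly-A controls the sign turned, with 0 lower and 17 higher, as for 83.7% of all probe sets, and scaled to hybridisation controls 16 were lower, as were 75.7% of all. Under the deposited scaling the count of lower probe sets was 5 without cell replicate 1 and 7 without replicate 2. After quantile normalization of the cell arrays 11 were lower and 0 higher, against 16.2% and 18.4% of all probe sets. The lower probe sets under the deposited scaling included Msmo1 1423078_a_at at -0.54 and Sqle at -0.45 (SE 0.09 each, limma adjusted p = 0.00146 and 0.00344). Hmgcs1 1433446_at was at -0.87 (SE 0.10, limma adjusted p = 0.000155), and the dim Hmgcs1 1441536_at at -2.28 (SE 0.22, limma adjusted p = 6.22e-05). Hmgcs1 1433444_at, Dhcr7 and both Idi1 probe sets did not pass, at 0.05, -0.11, -0.10 and 0.16. Lss had -0.49 and -0.62 for 1420013_s_at and 1426913_at, and Fdft1 1448130_at had -0.44 (limma adjusted p = 0.00924, 0.00244 and 0.00611). Probe sets of Hmgcs1 alone thus ran from -2.28 to 0.05. The batches are known only from the hybridisation date in the array headers, so culture, extraction and hybridisation cannot be told apart.

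**Figure D4:**
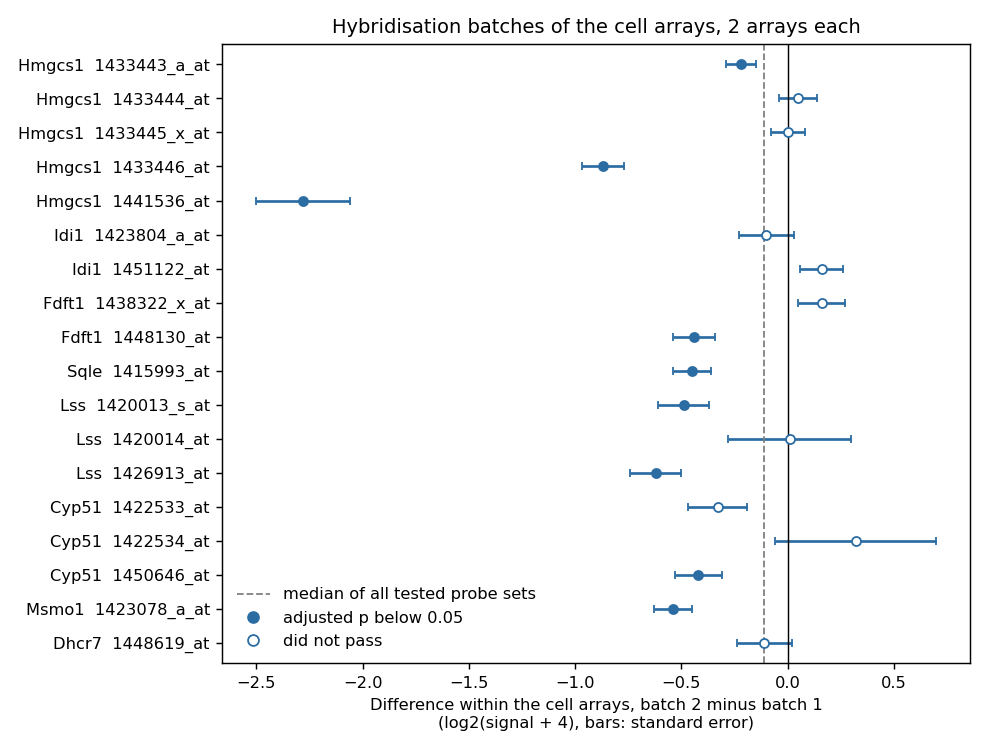
Log2 difference between the cell arrays of batch 2 and batch 1 for each tested member probe set, with its standard error, and filled points where it passed. Sqle, Msmo1 1423078_a_at and Hmgcs1 1433446_at are lower in batch 2 under the deposited scaling, while the Idi1 and Dhcr7 probe sets did not pass.

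The rest of the pathway was described from 6 lists, taking for each gene the tested probe set with the highest mean signal. Of 56 genes listed, 47 had a named probe set and 41 were tested. Of these 28 fell, 2 rose and 11 did not pass, with a median of -1.93. With 1 probe set a gene, all 8 members fell, with a median of -3.76, while 46.1% of 9840 genes fell and 15.0% rose, with a median of -1.15. No listed gene exceeded the floor on all exosome arrays, and 36 of the 41 were above it on none, against 7635 of 9840 genes. No list's share was tested against the others. The counts follow the deposited scaling. With the scaling to commonly measured probe sets, 3 of the 7 later sterol genes and 3 of the 9 regulators fell. So did 2 of the 8 uptake and transport genes and 7 of the 9 fatty acid genes, against 21.7% of all tested probe sets. With either set of control probe sets the counts were 7, 9, 7 and 9, and 2 of the 3 efflux and oxysterol genes fell. Of all tested probe sets, 94.3% fell with hybridisation controls and 81.7% with poly-A controls.

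Among the other mevalonate enzymes, 1 of 5 tested fell and 4 did not pass under the deposited scaling. All 5 fell with hybridisation or poly-A controls, as did most of the array, and 2 rose with the scaling to commonly measured probe sets. Under the deposited scaling Ggps1, which did not pass, had 3 other tested probe sets, of which 2 fell and 1 rose. Fdps makes farnesyl diphosphate, the substrate of Fdft1, and had signals of 142, 92.2, 132 and 115 in exosomes, against 4905, 5086, 5809 and 5985 in cells. It was at least 19.4-fold lower in exosomes (log2 difference -5.47, SE 0.25, limma adjusted p = 3.48e-07), and its groups were far apart. Pmvk and Mvd, which act between mevalonate and the isoprene units, did not pass. Both were above the floor on 4 cell arrays and 0 exosome arrays. Their mean cell signals were under the mean exosome floor of 282, so any fall would lie within the exosome background. Pmvk averaged 117 ± 78.0 in exosomes and 177 ± 25.6 in cells, and Mvd 136 ± 102 in exosomes and 186 ± 62.8 in cells (SD, n = 4 each). Of 7 later sterol genes, 5 fell and 2 did not pass. Hsd17b7, which did not pass, had 1 other tested probe set, which rose. Lbr, a nuclear membrane sterol reductase, had 140, 117, 127 and 45.1 in exosomes and 1940, 2014, 2465 and 2876 in cells, at least 8.18-fold lower in exosomes (limma adjusted p = 6.36e-06). Nsdhl, a dehydrogenase, and Ebp, an isomerase, were at least 3.07-fold and 2.15-fold lower in exosomes (limma adjusted p = 0.000124 and 9.87e-06).

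Of 9 regulators, 7 fell and 2 did not pass, those being Insig1 and Insig2, which hold SREBP in the endoplasmic reticulum. Mbtps1, counted as fallen, had 2 other tested probe sets, of which 0 fell and 1 rose. Insig1 was at -0.70 (limma adjusted p = 0.12), and it fell after quantile normalization (-1.38) and after background subtraction (-2.59). Srebf1, which encodes an SREBP precursor, had 171, 199, 127 and 245 in exosomes, against 976, 960, 1283 and 1345 in cells. It was at least 4.02-fold lower in exosomes (log2 difference -2.62, SE 0.30, limma adjusted p = 4.44e-05). Rnf139, a membrane ubiquitin ligase, and Ubxn4, a protein of the endoplasmic reticulum, were at least 1.85-fold and 1.53-fold lower in exosomes (limma adjusted p = 0.00209 and 0.00745), although 2 other tested probe sets of Ubxn4 did not pass.

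Of 8 uptake and transport genes, 6 fell, 1 rose and 1 did not pass. Npc2 hands cholesterol on in the lysosome and had 362, 296, 165 and 141 in exosomes, against 2666, 2421, 2663 and 2834 in cells. It was above the floor on 2 exosome arrays and had a log2 difference of -3.54 (SE 0.33, limma adjusted p = 1.23e-05). Among 2 other tested probe sets of Npc2, 1 fell and 0 rose. Stard4, a cytosolic sterol carrier, was at least 2.72-fold lower in exosomes and Osbp, an oxysterol-binding protein, at least 1.39-fold lower (limma adjusted p = 0.00049 and 0.0293). The Osbp call was lost without any 1 cell replicate, with limma adjusted p of 0.054 to 0.0606. Lipa, the lysosomal acid lipase that frees cholesterol from its esters, went the other way, with 234, 344, 258 and 254 in exosomes and 29.4, 40.9, 9.3 and 15.6 in cells. It rose by 3.45 (SE 0.46, limma adjusted p = 0.000128) under the deposited scaling. The rise was 4.37 with the scaling to commonly measured probe sets and 2.63 after quantile normalization. The difference was -0.76 scaled to hybridisation controls and 0.10 scaled to poly-A controls. Only 1 exosome array of Lipa was above the floor. Of its 2 other tested probe sets 1 rose, and with the probe set of the highest cell mean in its place no gene of this list rose.

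Of 3 genes of efflux and oxysterol response, 0 fell, 1 rose and 2 did not pass. Nr1h3, an oxysterol receptor, had 116, 296, 237 and 24.9 in exosomes and 23.7, 17.5, 12.6 and 16.5 in cells. Its log2 difference was 2.57 (SE 0.69, limma adjusted p = 0.00903), and it was 3.47 with the scaling to commonly measured probe sets. It did not pass after quantile normalization (0.97) or background subtraction (1.5). It was -1.40 scaled to hybridisation controls and -0.70 scaled to poly-A controls. Only 1 exosome array of Nr1h3 was above the floor, and within batch 2 no gene of this list rose. Abca1 and Abcg1, the cholesterol exporters, had differences of -0.10 and -0.12 (limma adjusted p = 0.835 and 0.867). All 9 genes of fatty acid synthesis fell by the probe set taken, with a median of -3.72. The 1 other tested probe set of Fads1 rose. Elovl6 and Fads2 each had 2 other tested probe sets, of which 1 fell and 0 rose. Fasn, fatty acid synthase, had 52.5, 24.8, 30.6 and 17.5 in exosomes, against 1781, 1766, 2290 and 1697 in cells, at least 6.67-fold lower in exosomes (limma adjusted p = 1.49e-06). Acly, which supplies acetyl units to both pathways, was at least 7.42-fold lower in exosomes (limma adjusted p = 4.84e-06). Scd2, a fatty acid desaturase, had 489, 357, 35.3 and 213 in exosomes and 4554, 4761, 5498 and 5750 in cells, with a log2 difference of -4.70 (SE 0.65, limma adjusted p = 0.000154). It was above the floor on 2 exosome arrays, and the difference was -3.84 when sub-floor signals were raised to it. Among 2 other tested probe sets of Scd2, 1 fell and 0 rose.

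**Figure D5:**
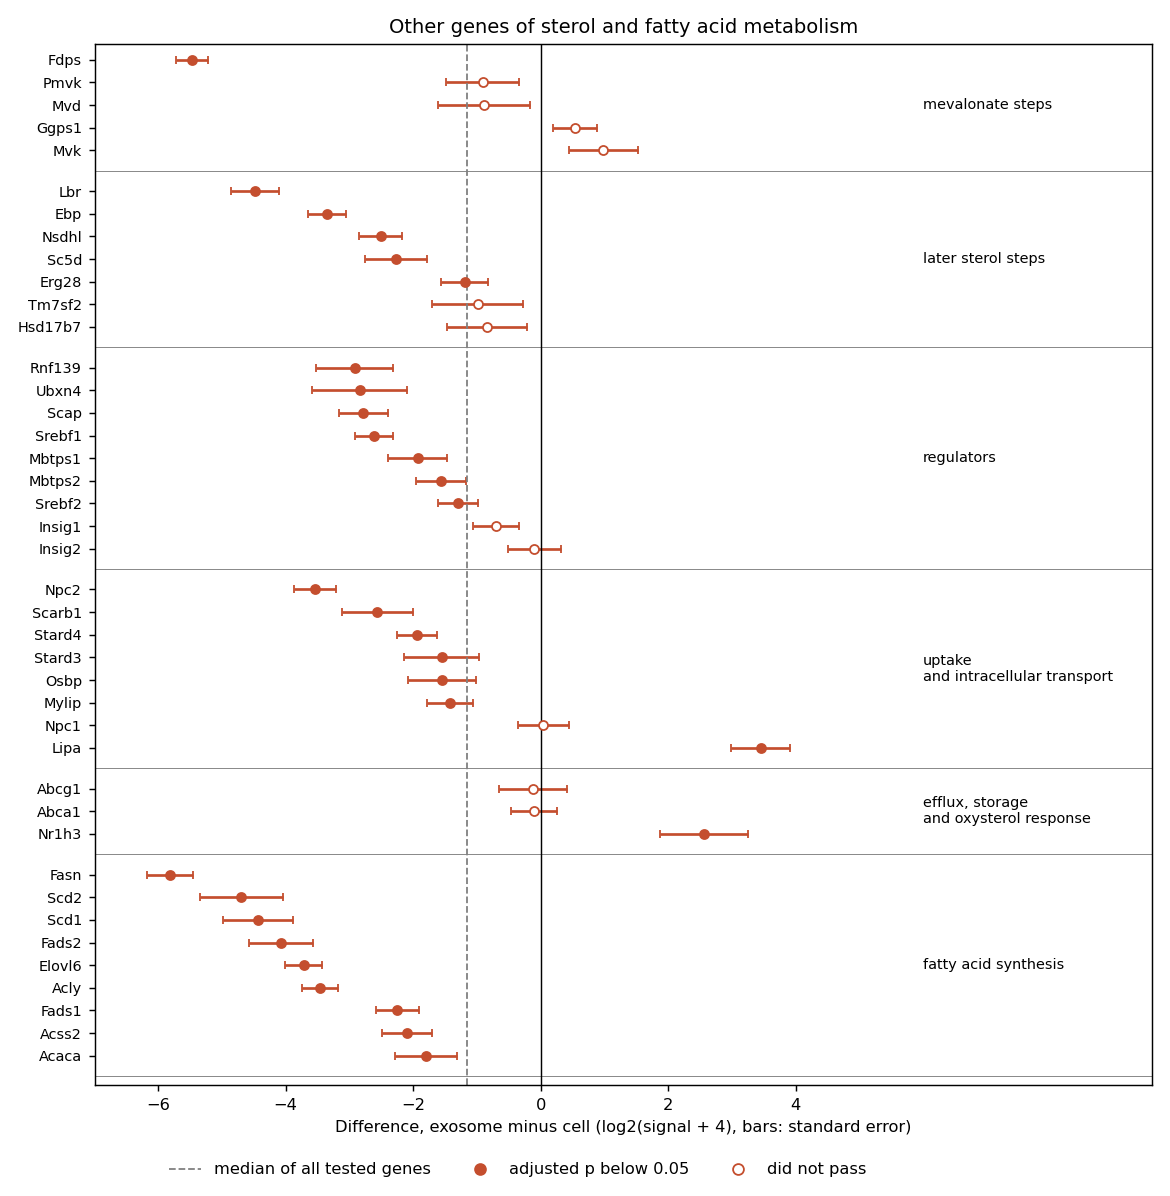
Log2 difference, exosome minus cell, of the tested genes of each list, with 1 point a gene, bars for the standard error and a dashed line at the median of all tested genes. All 9 genes of fatty acid synthesis lie below 0, while Lipa and Nr1h3 are the 2 genes that rose.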

How the data were processed

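Signal intensities were deposited by the authors for 8 Affymetrix mouse arrays, made with GCOS per the submitters' processing notes. How probes were summarised and background was treated is not stated there. The values were linear, with a 2% trimmed mean of 100.0 on each array and a median of 41.8. Precision is limited by the number of arrays. Of 45101 probe sets, 64 were controls, 34945 had 1 gene symbol, 932 several and 9160 none, and 34741 matched a RefSeq gene by gene ID.

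The floor, the test filter (3 of 4 arrays) and the bound are defined in the text. The fits (lmFit, then eBayes with trend, on log2(signal + 4)) used limma 3.58.1 and R 4.3.3, Benjamini-Hochberg adjusted over 20219 probe sets, threshold 0.05, and were tested on simulated data. Percentiles within arrays were compared by exact permutation. Alternatives were other scalings, pseudocounts of 1, 16 and 32, other floors, no filter, batch and replicate blocks, fits within batches and leaving out each replicate. Genes named from each list were the 3 tested genes with the highest mean cell signal, those that rose and those above the floor on all exosome arrays. Ggps1, Insig1, Insig2, Hsd17b7, Mbtps1, Fads1, Fads2 and Elovl6 fall outside this rule and were named after their values were seen. The members and lists were chosen with earlier results of these data known.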

Additional observations from a re-analysis of the deposited data

Results flagged for a closer look

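Of 42 groups of 4 arrays, 5 had an array far from the other 3, with a gap over range above Dixon's critical value, and chance gives about 1 in 20. On exosome arrays these were Hmgcs1 1433446_at (0.905, array 4 low), Fdft1 1448130_at (0.924, array 2 low) and Cyp51 1422534_at (0.902, array 4 high). On cell arrays they were Fdft1 1438322_x_at (0.848) and Cyp51 1422534_at (0.867), each with array 2 low.

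The Idi1 1423804_a_at difference, exosome minus cell, differed between hybridisation batches by 4.2 on the log2 scale, batch 2 minus batch 1 (limma adjusted p = 0.0167). Exosome signals were 183 and 132 in batch 2 and 4.9 and 5.62 in batch 1, all under the floor.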

How the results depend on the processing

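Of the other values computed under alternatives, 1099 kept their direction and side of the threshold or moved within the spread; the cause of the changes below was not tested. Members that fell numbered 8 when scaled to the commonly measured probe sets, and 14 to 15 with 1 replicate left out. Members that rose numbered 0 after quantile normalization, hybridisation-control scaling, poly-A scaling and background subtraction, 4 of 21 with no filter (59% of all probe sets) and 3 of 18 when sub-floor signals were raised to the floor (67.6% of all). Listed genes that fell numbered 16 under the common scaling, against 21.7% of all tested probe sets. Those that rose numbered 1 after quantile normalization or background subtraction (7.33% and 7.76% of all). They numbered 1 with the probe set of the highest cell mean and 4 under the common scaling (28.7% of all in the latter). With hybridisation controls, poly-A controls and the 99th percentile floor 0 rose (1.25%, 1.44% and 10.1% of all). Set to the floor, 15 rose (67.6% of all). Members above the floor on all exosome arrays numbered 1 within batch 2. Those above it on at least 1 numbered 0 with the 99th percentile floor, 1 within batch 2 and 1 to 4 with 1 replicate left out, the 1 being without exosome replicate 1. Members lower in cell batch 2 numbered 16 with hybridisation controls, 0 with poly-A controls and 5 to 10 with 1 cell replicate left out, and 17 were higher with poly-A controls. Signs reversed with signals set to the floor for Hmgcs1 1441536_at (2.60), Cyp51 1422533_at (0.19), Pmvk (0.66), Mvd (0.64), Abca1 (0.94) and Abcg1 (1.69). Every exosome value of these was then the floor itself, so the sign only sets the cell signals against that floor. With hybridisation controls signs reversed for Lss 1420014_at (-2.05), Cyp51 1422534_at (-3.18), Lipa (-0.76) and Nr1h3 (-1.40). With poly-A controls they reversed for Lss 1420014_at (-1.25), Cyp51 1422534_at (-2.36) and Nr1h3 (-0.70), and after quantile normalization for Cyp51 1422534_at (-1.59). Same-numbered arrays did not deviate together (correlations -0.021, -0.032, -0.074 and 0.008). With the replicate number as a block, 15 members fell and 1 rose, 27 listed genes fell and 2 rose, and 7422 probe sets fell, against 7585 without it. Exosome signals were mostly under the floor, which limits what the size of a difference can show.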

Other observations

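In the cells, under the deposited scaling, other genes of sterol supply were also compared between the hybridisation batches, after the values had been seen. Of 41 tested genes of the 6 lists, 12 were lower in batch 2, 7 were higher and 22 did not pass (limma on 2 against 2 arrays), near the 23.8% lower and 15.4% higher of all 19843 probe sets tested. After quantile normalization 11 were lower and 3 higher. The counts were 9 lower and 1 higher without cell replicate 1, and 6 lower and 3 higher without cell replicate 2. Lower were Nsdhl (-0.72, SE 0.10, limma adjusted p = 0.000521), Stard4 (-0.82, SE 0.13, limma adjusted p = 0.000773), Mvd (-0.83, SE 0.14, limma adjusted p = 0.0013) and Acss2, which makes acetyl-CoA from acetate (-0.93, SE 0.12, limma adjusted p = 0.000219). Higher were Lbr (0.43, SE 0.09, limma adjusted p = 0.00469), Srebf1 (0.44, SE 0.09, limma adjusted p = 0.00333), Elovl6, a fatty acid elongase (0.40, SE 0.09, limma adjusted p = 0.00473) and Fdps (0.24, SE 0.07, limma adjusted p = 0.0197). Signs depended on the scaling. With hybridisation controls all 8 of these genes were lower, at -1.64 to -0.28, and with poly-A controls all 8 were higher, at 1.36 to 2.74. After quantile normalization Fdps was at -0.08 and Lbr at 0.07. These 8 were chosen after their values were seen.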
